A study of Mus musculus with 26 samples.

Results

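Imprinted genes are expressed mainly from the maternal or the paternal chromosome, and 41 of them, given as a list of gene symbols, were described in the transcriptome of mouse germinal vesicle (GV) oocytes. All 41 were found among the 24450 features of the count table, 36 at loci whose germline methylation is laid down in the mother's germline and 5 (H19, Igf2, Dlk1, Meg3 and Rasgrf1) at loci methylated in the father's germline. RNA with poly(A) tails was sequenced from pools of 10 GV oocytes, which the labels treat as biological replicates, so p-values measure the spread between pools. Because libraries came from pooled cells, fewer cells with a transcript and less transcript per cell cannot be told apart.

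The reference group, called WT, carried floxed Tet3 LCD alleles (Tet3 LCDf/f) and no Cre (n = 6), where LCD is the low-complexity domain of Tet3. All other groups carried Zp3-Cre, a transgene driven by the promoter of a zona pellucida gene that is active in growing oocytes. They were LCD KO (Tet3 LCDf/f; Zp3-Cre, n = 7), HD mutant (Tet3 LCD HD Mutf/f; Zp3-Cre, n = 5, with HD not defined in the labels), Dnmt3a KO (Dnmt3af/f; Zp3-Cre, n = 2), DKO (both the Dnmt3af/f and the Tet3 LCDf/f alleles with Zp3-Cre, n = 2) and a group labelled Tet3 KO (Tet3f/f; Zp3-Cre, n = 2). A group labelled as lacking Tet1, Tet2 and Tet3 held 2 columns identical in every feature to those labelled Tet3 KO, and each pair was counted once, leaving 24 distinct libraries. Because WT alone lacked Zp3-Cre, the allele change and the presence of Cre cannot be told apart in any comparison with WT. The labels give no age for the animals. Batch 1 held WT 1 to 3 and LCD KO 1 to 3. HD mutant 1 to 3 belonged to batch 2 with WT 4 and with LCD KO 4 and 5. All Dnmt3a KO, DKO and labelled Tet3 KO libraries belonged to batch 3, together with WT 5, WT 6, LCD KO 6 and LCD KO 7. HD mutant 4 and 5 have no batch in the labels and stayed outside the batch-adjusted fit.

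Most imprinted loci are controlled by a CpG-rich differentially methylated region that acquires methylation in only 1 of the germlines. In the growing oocyte this methylation depends on Dnmt3a and its cofactor Dnmt3l and follows transcription across the region, so that a promoter of a paternally expressed gene becomes methylated inside a longer transcript that often belongs to a host gene. Tet3 is a dioxygenase that oxidizes methylated cytosine. In the embryo the methylated maternal copy of such a promoter stays silent and the gene is read from the father's chromosome, while at paternally methylated loci the mark is set in male germ cells.

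Library totals lay between 1838824 and 7833087 counts, with 12948 to 15510 genes detected per library. Levels are given as CPM (counts scaled to library size, with TMM factors that adjust for composition). Differences are log2 fold changes ± standard error from a fit of group and batch effects to the 22 libraries of stated batch. A gene was called when its edgeR quasi-likelihood p, adjusted by Benjamini-Hochberg over all 11794 genes tested, was below 0.05. Tet3 counts were lower than in WT in LCD KO (-1.78 ± 0.21), HD mutant (-1.86 ± 0.33) and DKO (-1.73 ± 0.36), and Dnmt3a counts in Dnmt3a KO (-1.53 ± 0.20) and DKO (-1.81 ± 0.20), all called. The libraries labelled Tet3 KO went against their label: Tet3 was not lower there (0.60 ± 0.33, adjusted p = 0.65), whereas Dnmt3a was (-1.48 ± 0.20, adjusted p = 4.1e-05). All 10 markers of GV oocytes were detected over the libraries together, with summed levels of 8491 to 34028 CPM. Sohlh1, with 23 counts in all, was at 0 in Dnmt3a KO, DKO and the libraries labelled Tet3 KO. The 19 granulosa markers summed to 81.5 to 141 CPM in 23 libraries and to 431.5 CPM in LCD KO 2, blood markers to at most 3.01 CPM, and theca or stroma markers to at most 6.31 CPM. Most of the granulosa sum in LCD KO 2 came from Inha (293 CPM) and Gja1 (61.7 CPM).

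Promoter windows are shown for Blcap, Commd1 and Herc3, the 3 genes called below that had an entry, and for 4 genes not called by edgeR over all 22 libraries: the pair of Mcts2 and its host H13, as the layout of a nested imprinted gene, Mest, the most abundant paternally expressed member, and Meg3, the most abundant member at a paternally methylated locus. The 250 bases before the annotated start were read from the RefSeq promoter table for GRCm38.p6, whereas the authors aligned to mm9, so no coordinate below was used with the counts. Of the 41 genes, 31 had an entry there, with 47 windows, and Cdkn1c, H19, Impact, Kcnk9, Kcnq1, Nespas, Peg10, Peg13, Sgce and Trappc9 had none. The Blcap window is at chr2:157566362-157566611 and that of Commd1, from the start with more CG dinucleotides, at chr11:22982285-22982534, both on the minus strand. On the plus strand are Herc3 at chr6:58833450-58833699, H13 at chr2:152669211-152669460, Mcts2, inside H13, at chr2:152686898-152687147, Mest at chr6:30737800-30738049 and Meg3 at chr12:109540746-109540995. Each is written 5′ to 3′ on its own strand, and capitals mark CG dinucleotides, the sites that Dnmt3a methylates.
Blcap: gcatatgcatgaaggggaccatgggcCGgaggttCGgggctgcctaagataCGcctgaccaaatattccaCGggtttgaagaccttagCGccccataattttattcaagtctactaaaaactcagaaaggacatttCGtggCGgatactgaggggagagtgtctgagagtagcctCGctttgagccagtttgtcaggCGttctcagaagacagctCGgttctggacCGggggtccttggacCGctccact
Commd1: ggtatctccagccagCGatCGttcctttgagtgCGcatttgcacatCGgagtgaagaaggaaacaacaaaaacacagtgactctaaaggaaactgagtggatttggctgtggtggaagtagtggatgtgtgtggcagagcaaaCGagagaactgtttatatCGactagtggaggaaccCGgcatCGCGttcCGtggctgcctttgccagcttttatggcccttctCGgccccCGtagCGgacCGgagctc
Herc3: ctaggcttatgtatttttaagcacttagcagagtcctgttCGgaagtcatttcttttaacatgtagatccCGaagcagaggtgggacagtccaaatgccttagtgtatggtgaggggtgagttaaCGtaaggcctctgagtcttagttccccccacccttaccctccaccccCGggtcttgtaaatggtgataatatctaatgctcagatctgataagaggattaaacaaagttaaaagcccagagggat
H13: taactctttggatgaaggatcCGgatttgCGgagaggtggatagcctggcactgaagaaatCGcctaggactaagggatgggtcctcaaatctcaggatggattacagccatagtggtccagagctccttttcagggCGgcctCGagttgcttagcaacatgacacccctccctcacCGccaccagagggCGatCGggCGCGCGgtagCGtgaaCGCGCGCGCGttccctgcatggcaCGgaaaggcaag
Mcts2: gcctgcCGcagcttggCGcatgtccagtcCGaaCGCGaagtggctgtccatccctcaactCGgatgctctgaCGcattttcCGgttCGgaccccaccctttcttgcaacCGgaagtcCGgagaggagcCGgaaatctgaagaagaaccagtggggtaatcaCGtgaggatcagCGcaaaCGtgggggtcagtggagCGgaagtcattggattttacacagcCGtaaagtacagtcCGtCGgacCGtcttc
Mest: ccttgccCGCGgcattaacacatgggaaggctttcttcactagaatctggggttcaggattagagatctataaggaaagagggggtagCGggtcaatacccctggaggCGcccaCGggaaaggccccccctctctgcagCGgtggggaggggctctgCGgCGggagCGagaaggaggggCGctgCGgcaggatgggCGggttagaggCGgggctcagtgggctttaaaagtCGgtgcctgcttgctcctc
Meg3: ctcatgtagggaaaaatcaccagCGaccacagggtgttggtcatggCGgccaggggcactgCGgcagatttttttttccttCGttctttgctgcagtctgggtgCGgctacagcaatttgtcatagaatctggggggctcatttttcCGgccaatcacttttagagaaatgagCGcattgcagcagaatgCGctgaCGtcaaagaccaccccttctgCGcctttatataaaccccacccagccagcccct

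Of the hosts, H13 had 18 CG dinucleotides in its window, Commd1 14, Blcap 12 and Herc3 4. The Mcts2 window held 20, that of Mest 14 and that of Meg3 10. Over the 39 windows of maternally methylated loci (27 genes) the median was 12, over the 8 windows of paternally methylated loci (4 genes) it was 9, and over all 32851 windows it was 6. The maternal class was mixed: the median was 7 over 23 windows of paternally expressed genes, close to that of all windows. It was 21 over 11 windows of maternally expressed genes and 13 over 5 windows of host genes. The hexamer TGCCGC, the core of the motif that the imprint-protecting protein Zfp57 binds when it is methylated, was searched on both strands. It was found in 7 of 39 maternal-class windows (17.9%) and in 1 of 8 paternal-class windows (12.5%), against 8.68% of all windows. Within the maternal class it was in 5 of 23 windows of paternally expressed genes, 2 of 11 of maternally expressed genes and 0 of 5 of host genes. The genes were Copg2, Mcts2, Meg3, Mest, Nap1l5, Plagl1 and Zim1, with 2 matches in the Mest window shown above. Another Mest window, at chr6:30737803-30738052, overlaps that one and holds the same 2 matches, so this sequence was counted more than once. A match describes the letters of these windows only.

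Most of these genes left transcripts in the GV oocyte, led by host genes, Mest and Gnas. Of the 41, 29 reached a mean of 1 CPM in at least 1 group, 7 stayed below it with 4 to 70 counts over all 24 libraries, 4 held at most 3 counts in total, and 1 was silent with 0 counts. For comparison, 21% of all 24450 features had 0 counts and 30.2% had at most 3, against 2.44% and 12.2% of the imprinted genes. The silent gene was Mkrn3, a ring finger protein of the Snrpn locus, where 0 counts allow up to 3 over all libraries. Nearly silent were Peg13 and Kcnk9 with 2 counts each, and H19 and Dlk1 with 1 count each. The low genes were Ndn (23 counts), Magel2 (4), Zrsr1 (39), Nnat (70), Slc38a4 (17), Igf2 (10) and Rasgrf1 (63). Such limits cover counting error only.

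By class, 14 of 21 paternally expressed genes at maternally methylated loci reached 1 CPM, as did 9 of 10 maternally expressed genes, all 5 host genes and 1 of 5 genes at paternally methylated loci. Summed over the 36 maternally methylated genes, each library held 1045 to 1608 CPM, and over the 5 paternally methylated genes 2.18 to 12.0 CPM. Between 24 and 33 of the 36 and between 1 and 3 of the 5 had a count in any library. The filter on low counts kept 26 of the 41 genes (63.4%, against 48.2% of all features): 25 maternally methylated genes and Meg3. The 15 left out were the 12 low and silent genes above and Peg10, Airn and Nespas, so counts of called genes below refer to the 26.

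**Figure D1:**
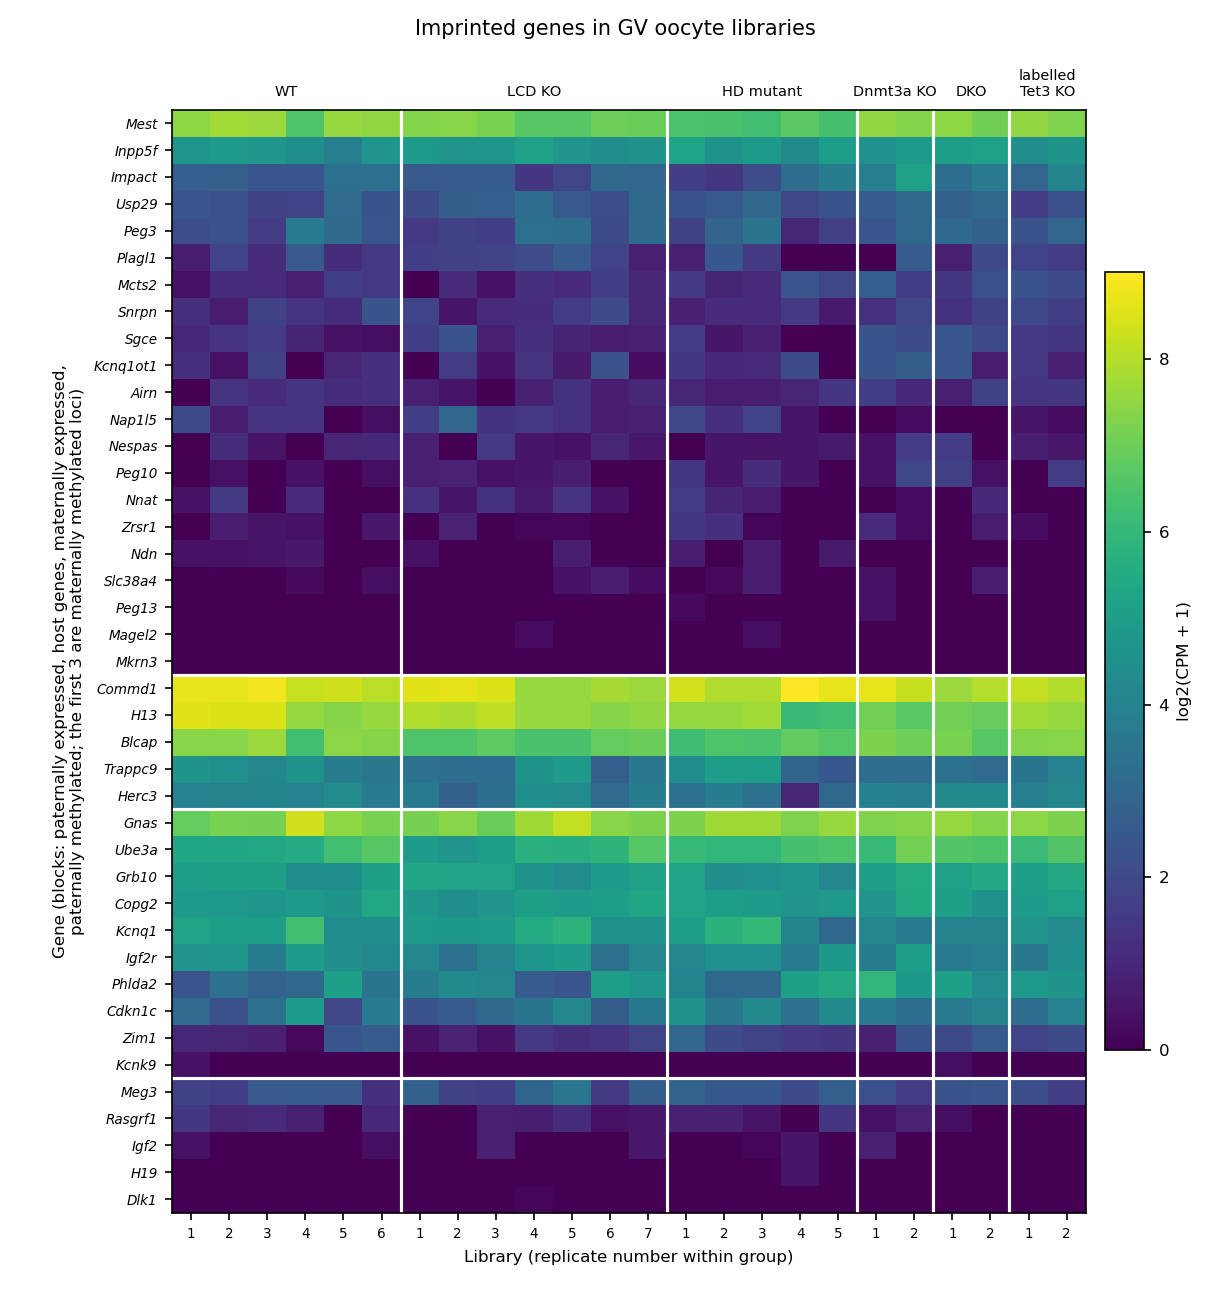
Level of each of the 41 genes (rows) in each of the 24 distinct libraries (columns, replicate number within a group), as log2(CPM + 1) on the colour scale. Rows are split into paternally expressed, host and maternally expressed genes of maternally methylated loci and, at the bottom, the 5 genes of paternally methylated loci, where Meg3 reached 10.7 CPM at most and H19 and Dlk1 held 1 count each.

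Per kilobase of exon, a scale on which genes can be set side by side, the host genes Commd1 (61.2 ± 12.8 CPM per kb in WT, SD, n = 6) and Blcap (52.1 ± 13.96) stood highest. Mest (44.6 ± 11.1) and H13 (31.4 ± 11.7) followed. Gnas (15.6 ± 6.698), Phlda2 (10.4 ± 9.402) and Kcnq1 (8.82 ± 5.18) came next. Neighbours in this order had overlapping ranges over the 6 WT libraries. The median level in WT was 31.4 CPM per kb over the 5 host genes, 4.27 over the 10 maternally expressed genes, 0.226 over the 21 paternally expressed genes and 0.0177 over the 5 paternally methylated genes. Mest was the exception within its class, since the next gene classed as paternally expressed, Inpp5f, stood at 2.77 CPM per kb. Counts are per gene symbol and do not separate the transcripts of a gene. Exon lengths came from a GENCODE annotation that was not the one the authors counted with.

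Paternally expressed genes were measured next to the genes that contain them. In RefSeq, Mcts2 lies inside H13, Kcnq1ot1 inside Kcnq1, Nap1l5 inside Herc3, Nnat inside Blcap, Peg13 inside Trappc9 and Zrsr1 inside Commd1, while Airn overlaps Igf2r and Mest overlaps Copg2. Because the strand setting of the counting is not stated in the labels, reads in these overlaps cannot be assigned with certainty. Per kilobase of exon the containing gene had the higher mean level in WT in all 6 nested pairs. Mcts2, an intronless translation factor gene, stood at 1.37 ± 0.7498 CPM per kb against 31.4 ± 11.7 for H13. Nnat, a proteolipid gene, stood at 0.3004 ± 0.422 CPM per kb against 52.1 ± 13.96 for Blcap. Kcnq1ot1 stood at 0.0113 ± 0.00899 CPM per kb, and Nap1l5, with 0.647 ± 0.6202 beside 1.69 ± 0.241 for Herc3, came closest to its host. Zrsr1, a splicing factor gene, stood at 0.0707 ± 0.0588 CPM per kb. Peg13, a noncoding RNA, had 0 counts in WT, while Trappc9, a subunit of a vesicle trafficking complex, stood at 2.32 ± 0.738 CPM per kb.

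Of the 5 genes of paternally methylated loci, Meg3 was the only 1 to pass the filter on low counts. Meg3, a noncoding RNA read from the maternal allele, ranged over 1.33 to 4.86 CPM (median 3.54) in WT and 1.87 to 10.7 CPM (median 5.28) in LCD KO, and was at 6.31, 4.53, 4.52, 3.26 and 5.59 CPM in HD mutant. Its values were 3.64 and 1.93 CPM in Dnmt3a KO, 4.01 and 4.303 in DKO and 3.47 and 2.202 in the libraries labelled Tet3 KO. All groups overlapped WT. Against WT the log2 fold change was 0.42 ± 0.34, adjusted p = 0.420 in LCD KO, -0.22 ± 0.47, adjusted p = 0.821 in HD mutant, -0.09 ± 0.57, adjusted p = 0.972 in Dnmt3a KO and 0.55 ± 0.54, adjusted p = 0.648 in DKO. Rasgrf1, an exchange factor for Ras, ranged over 0 to 1.72 CPM (median 0.999) in WT and 0 to 1.27 CPM (median 0.4801) in LCD KO. It was at 0.788, 0.755, 0.376, 0 and 1.68 CPM in HD mutant, 0.364 and 0.859 in Dnmt3a KO, 0.251 and 0 in DKO and 0 in both libraries labelled Tet3 KO. These are a few counts per library, and the groups overlapped, since WT 5 also held 0. Igf2, the growth factor of its locus, had 10 counts in 7 libraries, with 2 of 6 WT libraries above 0 and at most 0.737 CPM, in LCD KO 3. H19, the noncoding RNA beside it, was detected with 1 count in HD mutant 4, and Dlk1, a protein related to Notch ligands, with 1 count in LCD KO 4.

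In Dnmt3a KO and in DKO a single member was called, Sgce, a paternally expressed gene for a membrane protein of the sarcoglycan family. One called gene gives no measure of the imprinted genes as a class. Sgce held 1 to 5 counts in each WT library and passed the filter on low counts through Dnmt3a KO and DKO, where it was high. Its place among the 26 is therefore not independent of the call. Without the filter Sgce was also called (3.17, adjusted p = 0.00846 in Dnmt3a KO and 3.18, 0.00462 in DKO by edgeR). Of the 26 genes tested, 1 rose and 0 fell in Dnmt3a KO, where 0.755% of all genes tested were called (0.432% higher and 0.322% lower). In DKO again 1 rose and 0 fell, against 3.79% of all genes called (2.27% higher and 1.52% lower). The gene was Sgce in both, at low level: in batch 3 the WT libraries held 0.311 and 0.265 CPM (1 count each) and the LCD KO libraries 0.623 and 0.7201 CPM. Dnmt3a KO held 4.01 and 3.22 CPM (11 and 15 counts) and DKO 4.26 and 2.98 CPM (17 and 9 counts). These 4 libraries lay above all WT and LCD KO libraries of their batch, and above all WT libraries of any batch, whose highest was 1.95 CPM. LCD KO 2 in batch 1, the library with the high granulosa marker sum, reached 4.11 CPM, within the range of the Dnmt3a-deficient libraries.

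The log2 fold change of Sgce was 3.16 ± 0.72, adjusted p = 0.0274 in Dnmt3a KO and 3.20 ± 0.72, adjusted p = 0.0101 in DKO. These comparisons share their WT libraries. Averaged over both Tet3 backgrounds, a contrast added after the data were seen, it was 2.87 ± 0.59, adjusted p = 0.00993, and Sgce was again the single gene of the 26 called, against 1.14% of all genes (0.627% higher and 0.509% lower). The call in Dnmt3a KO was lost without WT 5 (adjusted p = 0.0601), WT 6 (0.109), Dnmt3a KO 1 (0.0995) or Dnmt3a KO 2 (0.141), and the call in DKO without DKO 1 (0.119). Within batch 3 alone the values were 3.49 (adjusted p = 0.111) and 3.53 (0.0507), and the averaged contrast was 2.94 (0.0150). Without a batch term they were 1.86 (0.394) and 1.88 (0.215) in a fit that also took in HD mutant 4 and 5. WT in batch 1 stood at 1.03, 1.56 and 1.95 CPM. The libraries labelled Tet3 KO, in which Dnmt3a was also low, held 1.85 and 1.71 CPM (8 and 7 counts), above both WT libraries of the batch and below Dnmt3a KO and DKO. Their fold change was 2.16 ± 0.78, adjusted p = 0.242, not called.

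Peg10, the retrotransposon-derived partner of Sgce at its locus, did not pass the filter on low counts. It held 0.364 and 2.79 CPM in Dnmt3a KO (1 and 13 counts), 2.26 and 0.331 in DKO and 0 and 1.96 in the libraries labelled Tet3 KO, and 0 to 0.3597 CPM (median 0.133) in WT. In each of these pairs 1 library was high and the other within or near the WT range. Without the filter Peg10 was called in Dnmt3a KO (4.67, adjusted p = 0.0388 by edgeR).

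**Figure D2:**
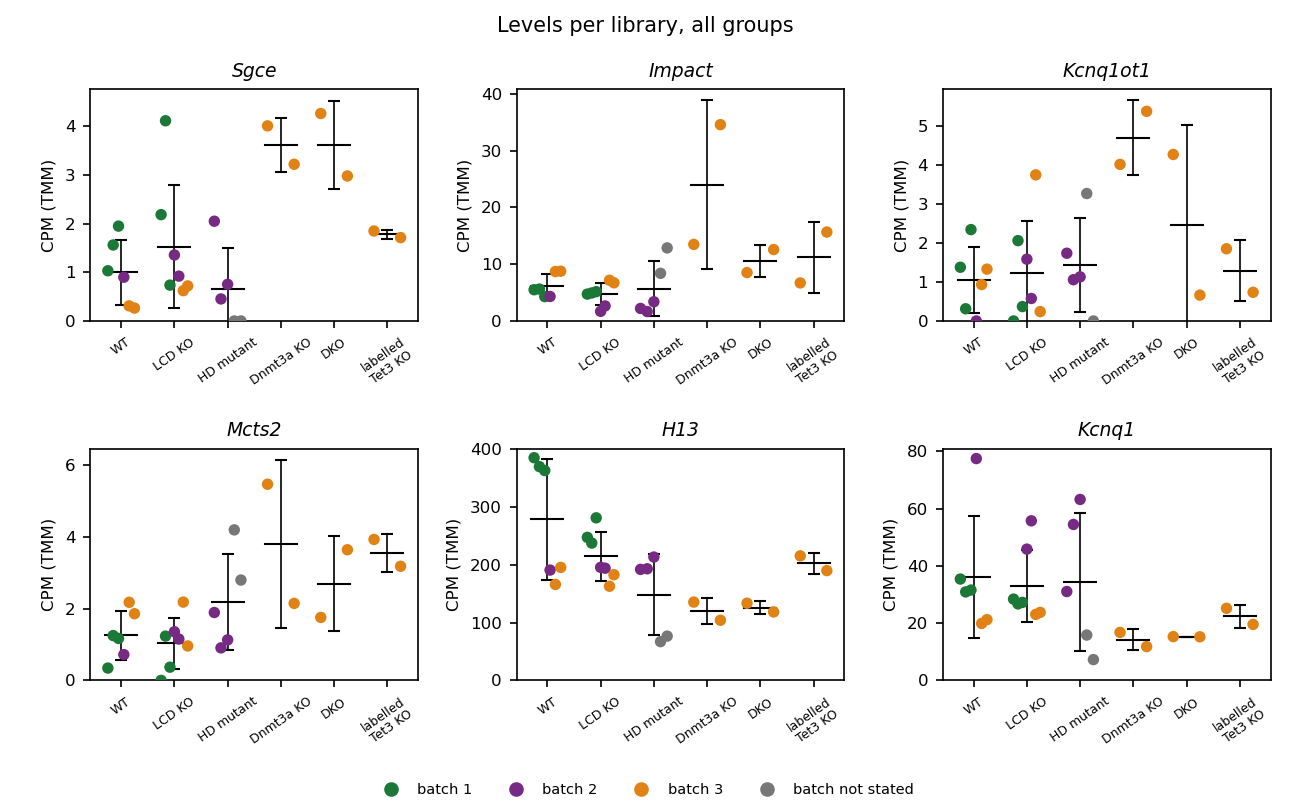
CPM (y axis, linear, TMM-scaled) of Sgce, Impact, Kcnq1ot1, Mcts2, H13 and Kcnq1 in every library of the 6 groups (x axis), coloured by batch, with group mean and SD (bars cut at 0). For Sgce the 4 Dnmt3a KO and DKO libraries lie between 2.98 and 4.26 CPM and the batch 3 WT libraries at 0.265 and 0.311 CPM, and for H13 and Kcnq1 the same 4 libraries lie below the WT and LCD KO libraries of batch 3.

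Among the 26 genes that passed the filter, Sgce was the only 1 called in Dnmt3a KO or DKO by edgeR with TMM factors. Other settings called further members, given here beside each gene. H13, a signal peptide peptidase and the host of Mcts2, ranged over 166 to 385 CPM (median 279) in WT and 163 to 281 CPM (median 196) in LCD KO, and was at 166 and 196 CPM in the WT libraries of batch 3. Dnmt3a KO held 136 and 104 CPM, DKO 134 and 118 CPM and the libraries labelled Tet3 KO 216 and 190.1 CPM. The 4 Dnmt3a KO and DKO libraries lay below all 4 WT and LCD KO libraries of the batch, while the labelled Tet3 KO libraries overlapped them. Its log2 fold change was -0.71 ± 0.19, adjusted p = 0.0706 in Dnmt3a KO and -0.63 ± 0.19, adjusted p = 0.0552 in DKO by edgeR. DESeq2 called it in both (adjusted p = 0.00783 and 0.0108), and edgeR with RLE factors in DKO (0.0488). By edgeR it was also called when some single libraries were left out: in both groups without WT 4 (0.0441 and 0.0330), WT 5 (0.0380 and 0.0309) or HD mutant 1 (0.0482 and 0.0405), and in DKO without Dnmt3a KO 1 (0.0446) or 2 (0.0447). Mcts2, whose CG-rich window is shown above, was at 2.18 and 1.86 CPM in WT of batch 3, 5.47 and 2.15 in Dnmt3a KO and 1.76 and 3.64 in DKO, ranges that overlapped (log2 fold change 0.93 ± 0.65, adjusted p = 0.574 in Dnmt3a KO).

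At the Kcnq1 domain, Kcnq1, a potassium channel, was at 19.9 and 21.2 CPM in WT of batch 3 and 23.1 and 23.8 in LCD KO, against 16.8 and 11.8 in Dnmt3a KO, 15.3 and 15.2 in DKO and 25.2 and 19.6 in the libraries labelled Tet3 KO. Values of Dnmt3a KO and DKO lay below those of WT and LCD KO in the batch, but the differences were not called (-0.77 ± 0.28, adjusted p = 0.229 in Dnmt3a KO; -0.65 ± 0.28, adjusted p = 0.217 in DKO). Over all genes, 2.07% lay below without overlap in the same way and 2.27% above, and of the 26 members H13 and Kcnq1 lay below and Sgce above. Kcnq1ot1, the noncoding RNA that represses the domain in cis, was at 0.933 and 1.33 CPM in WT of batch 3, 4.01 and 5.37 in Dnmt3a KO and 4.26 and 0.662 in DKO. DKO 2 lay below both WT libraries, and the fold change was 1.91 ± 0.89, adjusted p = 0.362 in Dnmt3a KO. Phlda2 and Cdkn1c, growth-restraining genes that Kcnq1ot1 silences in the embryo, were not called among the genes that passed the filter. Without the filter Phlda2 was called in Dnmt3a KO (1.07, adjusted p = 0.0202) and in HD mutant (1.22, 0.00434) by edgeR, and with the filter its values were 1.07 ± 0.46, adjusted p = 0.329 and 1.24 ± 0.50, adjusted p = 0.125. Phlda2 averaged 11.6 ± 10.5 CPM in WT, 16.3 ± 10.2 in LCD KO, 21.2 ± 16.1 in HD mutant, 43.7 ± 23.8 in Dnmt3a KO, 26.02 ± 9.65 in DKO and 26.1 ± 2.31 in the libraries labelled Tet3 KO. Cdkn1c averaged 10.9 ± 9.77 CPM in WT, 8.69 ± 4.61 in LCD KO, 16.3 ± 6.03 in HD mutant, 10.3 ± 2.43 in Dnmt3a KO, 13.6 ± 2.26 in DKO and 11.6 ± 4.67 in the libraries labelled Tet3 KO.

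Impact, an inhibitor of the stress kinase GCN2, ranged over 4.29 to 8.76 CPM (median 5.56) in WT, and Dnmt3a KO held 13.5 and 34.6 CPM, DKO 8.52 and 12.6 and the libraries labelled Tet3 KO 6.702 and 15.7. Both Dnmt3a KO libraries lay above every WT library, but DKO 1 and labelled Tet3 KO 1 did not. The log2 fold change was 1.45 ± 0.38, adjusted p = 0.0656 in Dnmt3a KO by edgeR, and DESeq2 called it (adjusted p = 0.0425). It was called by edgeR without the filter (0.00613) and when WT 4 (0.0447), HD mutant 1 (0.0457) or Dnmt3a KO 1 (0.0143) was left out. In DKO it was 0.24 ± 0.41, adjusted p = 0.815. The difference between DKO and Dnmt3a KO was -1.22 ± 0.42, adjusted p = 0.132.

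In all, 14 of the 26 genes had a positive and 12 a negative fold change in Dnmt3a KO, with a median of 0.04 against -0.01 over all genes tested. In DKO the split was 16 and 10, with a median of 0.11 against -0.01. In the labelled Tet3 KO group 0 of 26 were called by edgeR (1.37% of all genes, 0.551% higher and 0.822% lower) and 0 by DESeq2. An unadjusted p below 0.05 was found for 1, Sgce, which was higher, against 9.26% of all genes in both directions (469 higher and 623 lower of 11794). Their split was 14 positive and 12 negative, with a median of 0.01.

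**Figure D3:**
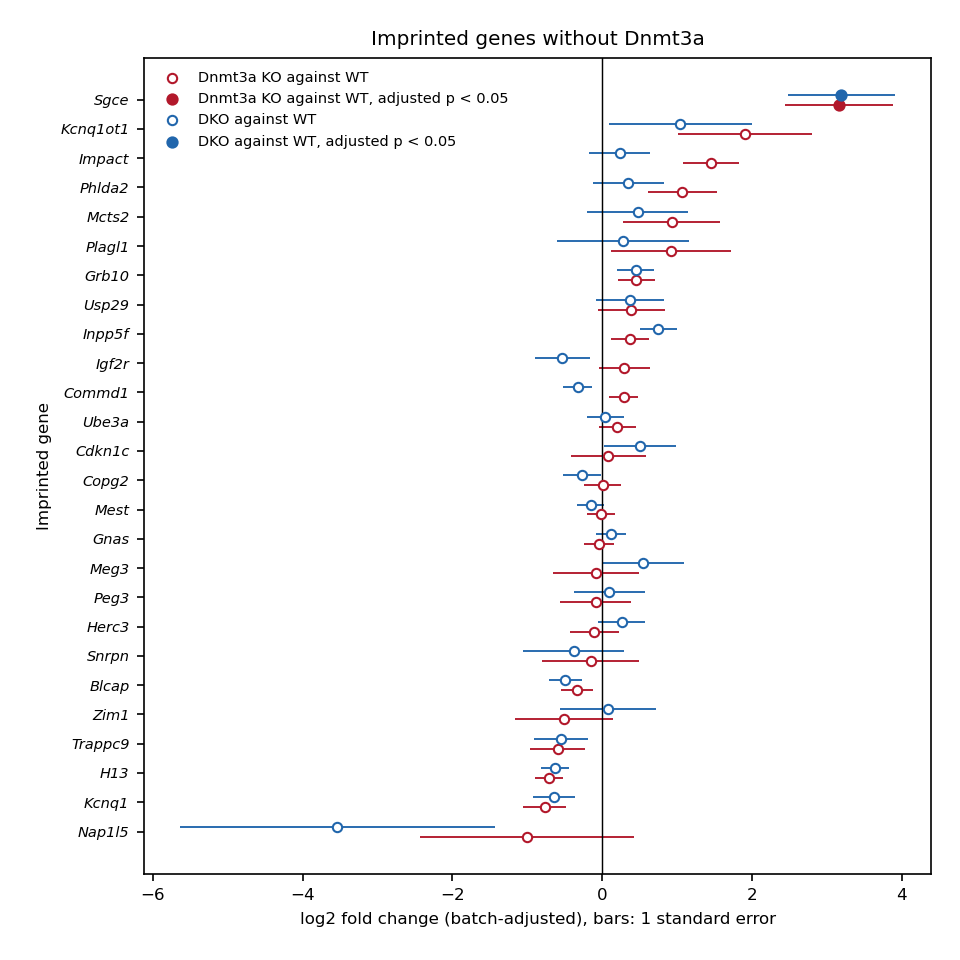
Log2 fold change against WT (x axis, batch-adjusted, bars of 1 standard error) of the 26 imprinted genes that passed the filter on low counts (y axis, ordered by the Dnmt3a KO value), in Dnmt3a KO and DKO. Filled points, with an adjusted p below 0.05, are those of Sgce at 3.16 and 3.20. Nap1l5 had 0 counts in both DKO libraries, so its fitted value there is no measure of size.

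Counting both directions together, imprinted genes were called in LCD KO, the loss of the Tet3 low-complexity domain, at no larger a share than all genes. Of the 26, 0 rose and 3 fell, against 18.3% of all genes called (8.89% higher and 9.44% lower). An unadjusted p below 0.05 was found for 7, all lower, against 31.8% of all genes in both directions (1791 higher and 1962 lower of 11794). The median over the 26 was -0.21, against -0.02 over all genes tested, with 17 negative and 9 positive. The 3 that fell were Blcap, Commd1 and Trappc9, hosts of Nnat, Zrsr1 and Peg13. All 5 genes classed as hosts had a negative fold change, as did 6145 of all 11794 genes tested. Kcnq1, which contains Kcnq1ot1, was classed with the maternally expressed genes and is not among the 5. The hosts H13 (-0.29 ± 0.11, adjusted p = 0.0774) and Herc3 (-0.44 ± 0.21, adjusted p = 0.140) were not called by edgeR. DESeq2 called H13 (adjusted p = 0.0391), as did edgeR without WT 4 (-0.37, 0.0400) or WT 5 (-0.35, 0.0338). Herc3 was called by edgeR without WT 4 (-0.72, adjusted p = 0.0213). The nested genes Mcts2 (-0.20 ± 0.51, adjusted p = 0.822) and Nap1l5 (0.75 ± 0.49, adjusted p = 0.303) were not called. Markers of cell types moved in the same comparison. Of 9 GV oocyte markers tested 0 rose and 5 fell (Mos, Zp2, Figla, Zp1 and Oosp1), with a median of -0.49, and the 10 summed to 13385 to 34028 CPM in WT and 11634 to 23695 CPM in LCD KO. Of 8 granulosa markers tested 1 rose, Hsd3b1 (0.99 ± 0.33, adjusted p = 0.0355), and the 19 summed to 81.5 to 141 CPM in WT and 98.3 to 431.5 CPM in LCD KO. The 1 theca or stroma marker tested, Dcn, also rose (2.08 ± 0.44, adjusted p = 0.00161); those 9 summed to 1.03 to 3.12 CPM in WT and 2.88 to 6.23 CPM in LCD KO, with 3 and 4 of them at 0. The part of these shifts in the values of the imprinted genes was not tested.

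Blcap, a gene linked to apoptosis, was at 169, 171, 199.98, 75.9, 173 and 163 CPM in WT 1 to 6 and at 90.3, 91.7, 109, 84.1, 84.8, 117 and 126 CPM in LCD KO 1 to 7. All LCD KO libraries lay below 5 of the 6 WT libraries, and WT 4, the only WT library of batch 2, lay below them. The fold change was -0.55 ± 0.13, adjusted p = 0.00502, and the call held when any 1 of the 22 libraries was left out. Within batch 1 it was -0.87, within batch 3 -0.48 and within batch 2 0.16. HD mutant held 73.9, 90.4, 87.6, 113 and 97.3 CPM, Dnmt3a KO 148 and 128, DKO 145 and 101 and the libraries labelled Tet3 KO 162 and 167.

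Commd1, a copper metabolism protein, was at 411, 408, 465, 303, 327 and 267 CPM in WT and at 391, 393, 359, 196, 191, 218 and 200.2 CPM in LCD KO. In each of the 3 batches every LCD KO library lay below every WT library, which held for 1 of the 26 members below and 0 above, against 5.21% and 6.26% of all genes. The fold change was -0.39 ± 0.12, adjusted p = 0.0237, with -0.15 in batch 1, -0.63 in batch 2 and -0.52 in batch 3. The call was lost without WT 4 (adjusted p = 0.104) and without LCD KO 7 (0.0509). HD mutant held 335, 246, 244, 514 and 403 CPM, Dnmt3a KO 405 and 294, DKO 200.3 and 255 and the libraries labelled Tet3 KO 291 and 249.5.

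Trappc9 was at 24.4, 22.2, 16.4, 23.7, 12.8 and 10.9 CPM in WT and at 9.47, 8.23, 8.103, 24.4, 27.999, 5.61 and 11.04 CPM in LCD KO. The batch 1 groups did not overlap, the batch 3 groups did, and in batch 2 both LCD KO libraries were higher than WT 4. The fold change was -0.69 ± 0.22, adjusted p = 0.0256, with -1.27 in batch 1, 0.15 in batch 2 and -0.49 in batch 3. The call was lost without WT 1, WT 2, LCD KO 1, LCD KO 2, LCD KO 3 or LCD KO 6 (adjusted p = 0.0580 to 0.0678). Without LCD KO 2, the library with the high granulosa marker sum, the fold change of Trappc9 was -0.62 (edgeR adjusted p = 0.0662, not called). In that fit Blcap (-0.51) and Commd1 (-0.43) kept their calls, while H13 (-0.24) and Herc3 (-0.34) were not called. The part of granulosa RNA in these values was not tested. For Trappc9, HD mutant held 20.02, 32.003, 31.995, 6.52 and 4.48 CPM, Dnmt3a KO 8.38 and 8.37, DKO 9.28 and 7.94 and the libraries labelled Tet3 KO 10.4 and 14.9.

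**Figure D4:**
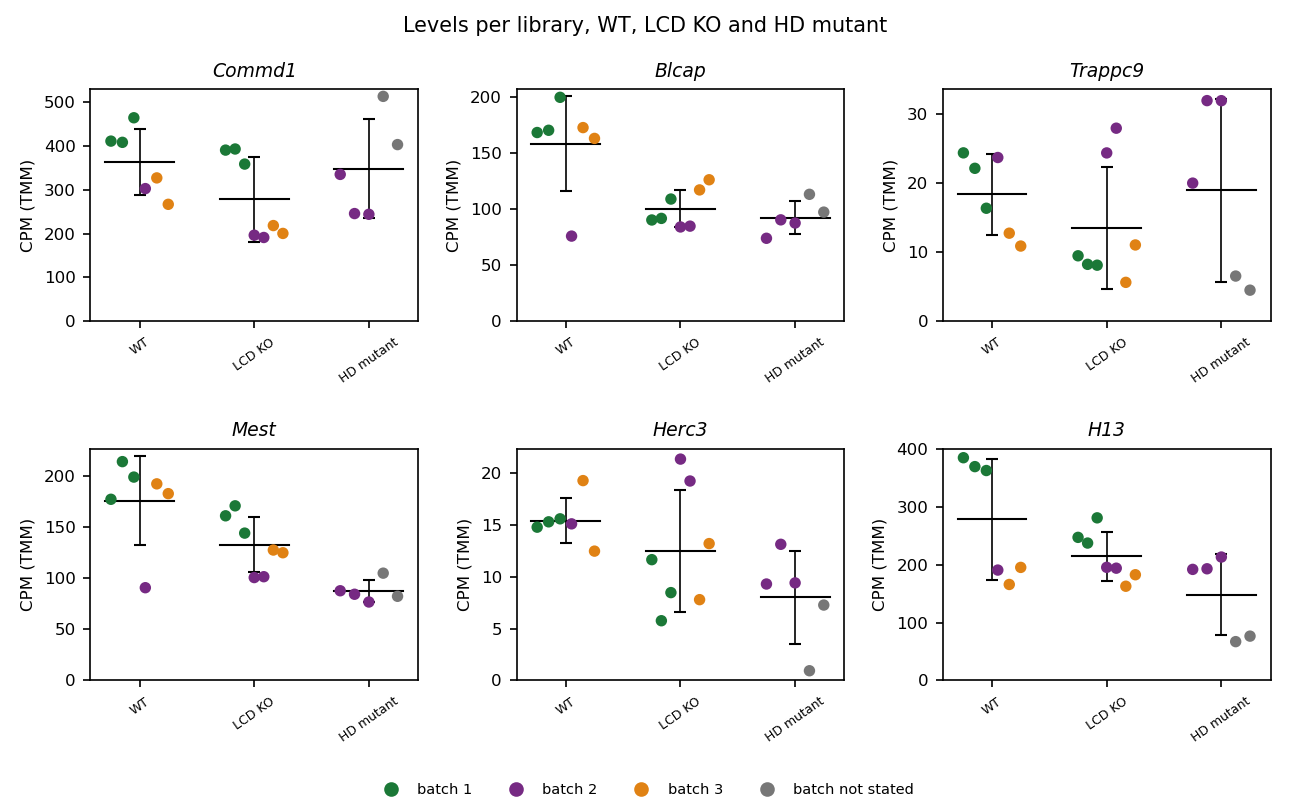
CPM (y axis, linear, TMM-scaled) of the host genes Commd1, Blcap, Trappc9, Herc3 and H13 and of Mest in every WT, LCD KO and HD mutant library (x axis), coloured by batch, with group mean and SD. Commd1 is lower in LCD KO than in WT within each batch, whereas for Blcap and Trappc9 the single WT library of batch 2 lies below the LCD KO libraries of that batch.

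The abundant members outside the host genes were not called in LCD KO by edgeR over all 22 libraries. Mest, a hydrolase-fold protein and the most abundant paternally expressed member, was at 177, 214, 199, 90.6, 192 and 183 CPM in WT and at 161, 171, 144, 101, 101, 127 and 125 CPM in LCD KO (-0.31 ± 0.12, adjusted p = 0.0617 by edgeR), and DESeq2 called it (adjusted p = 0.0344), as did edgeR without WT 4 (0.0150) or HD mutant 1 (0.0479). It was at 87.7, 84.2, 76.7, 105 and 82.2 CPM in HD mutant, 180.4 and 162 in Dnmt3a KO, 178 and 131 in DKO and 179.6 and 153 in the libraries labelled Tet3 KO. Apart from WT 4, the WT libraries lay above all LCD KO and HD mutant libraries. Gnas, a G protein subunit, ranged over 118 to 323 CPM (median 146) in WT and 125 to 287 CPM (median 167) in LCD KO, and was at 149, 208, 211, 153 and 194 in HD mutant, 153 and 163 in Dnmt3a KO, 191 and 162 in DKO and 173 and 149.95 in the libraries labelled Tet3 KO. Its groups overlapped throughout (-0.06 ± 0.12, adjusted p = 0.793 in LCD KO). Ube3a, a ubiquitin ligase imprinted in neurons, ranged over 38.2 to 99.5 CPM (median 43.1) in WT and 24.7 to 97.9 CPM (median 48.6) in LCD KO, with 66.7, 60.7, 61.9, 82.5 and 88.9 in HD mutant, 67.8 and 138 in Dnmt3a KO, 96.02 and 88.7 in DKO and 69.8 and 95.9 in the libraries labelled Tet3 KO. No difference of Ube3a from WT was called in the batch-adjusted fit.

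In the HD mutant, compared with WT over HD mutant 1 to 3, 0 of 26 rose and 1 fell, against 7.83% of all genes called (4.08% higher and 3.75% lower). The gene that fell was Herc3, a HECT ubiquitin ligase and the host of Nap1l5 (-1.14 ± 0.31, adjusted p = 0.0235). It was at 14.8, 15.3, 15.6, 15.1, 19.3 and 12.5 CPM in WT and 9.302, 13.1, 9.41, 0.932 and 7.27 CPM in HD mutant, and LCD KO ranged over 5.76 to 21.4 CPM (median 11.7). HD mutant 2 lay above WT 6, so the groups overlapped. Within batch 2, HD mutant 1 to 3 (9.302, 13.1 and 9.41 CPM) lay below WT 4 (15.1 CPM), the only WT library there. LCD KO 4 and 5 stood higher, at 21.4 and 19.2 CPM. The fit sets its batch term from WT and LCD KO, the groups found in every batch, so the fold change also rests on these LCD KO libraries. Herc3 was at 14.6 and 13.7 CPM in Dnmt3a KO, 17.8 and 18.5 in DKO and 13.9 and 16.9 in the libraries labelled Tet3 KO. That call was lost without HD mutant 1 (adjusted p = 0.0756), HD mutant 3 (0.0531), LCD KO 4 (0.0672) or LCD KO 5 (0.0632). Calls were gained for Gnas without LCD KO 2 (0.0450) or LCD KO 4 (0.0372) and for Mest without WT 4 (0.0466), all lower in HD mutant. HD mutant 4 and 5, which no batch term could place and which were left out of that fit, differed from the other 3 for several members: H13 was at 67.1 and 76.6 CPM there against 192, 193 and 214, and Kcnq1 at 15.8 and 7.27 against 31.1, 54.5 and 63.2.

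Compared directly with LCD KO, 0 of 26 members were called in the HD mutant by edgeR and 0 by DESeq2, against 2.08% of all genes by edgeR (1.17% higher and 0.907% lower). An unadjusted p below 0.05 was found for 4 members and 12.3% of all genes. The 4 were Zim1, a zinc finger gene of the Peg3 locus (1.83 ± 0.56, adjusted p = 0.0958), Commd1 (0.42 ± 0.18, adjusted p = 0.320), Gnas (-0.50 ± 0.18, adjusted p = 0.202) and Herc3 (-0.70 ± 0.27, adjusted p = 0.255). Without the filter Zim1 was called (1.799, adjusted p = 0.0223). Zim1 averaged 2.05 ± 2.08 CPM in WT, 1.28 ± 0.826 in LCD KO, 3.19 ± 2.01 in HD mutant, 2.404 ± 2.37 in Dnmt3a KO, 3.99 ± 1.38 in DKO and 2.86 ± 0.451 in the libraries labelled Tet3 KO.

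Removing the Tet3 domain in addition to Dnmt3a left no called difference among the 26. DKO against Dnmt3a KO gave 0 called by edgeR and 0 by DESeq2, against 1.99% of all genes by edgeR (1.07% higher and 0.924% lower). An unadjusted p below 0.05 was found for 3, all lower in DKO, and for 15.3% of all genes in both directions (914 higher and 895 lower of 11794). They were Impact, given above, Commd1 (-0.62 ± 0.22, adjusted p = 0.142) and Igf2r, a receptor that clears IGF2 (-0.83 ± 0.39, adjusted p = 0.302). DKO against LCD KO gave 0 called by edgeR and 0 by DESeq2, against 0.314% of all genes by edgeR (0.237% higher and 0.0763% lower). An unadjusted p below 0.05 was found for 4 members and 7.72% of all genes, and Sgce was among the 4 (2.59 ± 0.70, adjusted p = 0.135). The interaction of both losses, a contrast that includes WT and so also holds the presence of Zp3-Cre, gave 0 of 26 called by edgeR and 0 by DESeq2. By edgeR, 0.0678% of all genes were called (0.0509% higher and 0.017% lower). An unadjusted p below 0.05 was found for 0 members and 6.61% of all genes. For Sgce the interaction was -0.57 ± 0.78, adjusted p = 0.911, and for H13 0.37 ± 0.23, adjusted p = 0.791. Each Dnmt3a-deficient group held 2 libraries.

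For the remaining members that reached 1 CPM and passed the filter, no difference from WT was called in any group by edgeR with the filter and the batch term. At the Peg3 locus, Peg3, a zinc finger transcription factor, averaged 5.45 ± 3.63 CPM in WT, 4.91 ± 3.19 in LCD KO, 4.41 ± 3.802 in HD mutant, 5.84 ± 2.07 in Dnmt3a KO, 6.74 ± 1.11 in DKO and 5.27 ± 1.89 in the libraries labelled Tet3 KO. Usp29, a ubiquitin protease gene beside it, averaged 4.08 ± 1.96 CPM in WT, 5.46 ± 1.92 in LCD KO, 4.45 ± 1.49 in HD mutant, 6.31 ± 1.704 in Dnmt3a KO, 6.36 ± 0.838 in DKO and 2.87 ± 1.12 in the libraries labelled Tet3 KO. Both overlapped WT in all groups. Snrpn, a spliceosomal protein of the locus linked to Prader-Willi syndrome, averaged 1.86 ± 1.18 CPM in WT, 1.62 ± 0.959 in LCD KO, 1.11 ± 0.496 in HD mutant, 2.12 ± 0.942 in Dnmt3a KO, 1.91 ± 0.575 in DKO and 2.603 ± 0.567 in the libraries labelled Tet3 KO. Plagl1, a zinc finger regulator of growth, averaged 2.02 ± 1.44 CPM in WT, 2.68 ± 1.28 in LCD KO, 1.44 ± 1.89 in HD mutant, 2.47 ± 3.49 in Dnmt3a KO, 1.87 ± 1.57 in DKO and 2.25 ± 0.414 in the libraries labelled Tet3 KO, with 0 counts in HD mutant 4 and 5 and in Dnmt3a KO 1. Nap1l5 averaged 1.19 ± 1.14 CPM in WT, 2.13 ± 2.04 in LCD KO, 1.43 ± 1.24 in HD mutant, 0.107 ± 0.152 in Dnmt3a KO, 0 ± 0 in DKO and 0.353 ± 0.154 in the libraries labelled Tet3 KO. Its highest library was LCD KO 2 at 6.58 CPM, the one with the high granulosa marker sum, and Nap1l5 held 0 counts in WT 5, Dnmt3a KO 1 and both DKO libraries. Mcts2 averaged 1.25 ± 0.684 CPM in WT, 1.04 ± 0.706 in LCD KO, 2.18 ± 1.35 in HD mutant, 3.81 ± 2.35 in Dnmt3a KO, 2.698 ± 1.33 in DKO and 3.55 ± 0.529 in the libraries labelled Tet3 KO. Inpp5f, a phosphoinositide phosphatase, averaged 23.1 ± 5.01 CPM in WT, 26.2 ± 4.25 in LCD KO, 27.8 ± 6.96 in HD mutant, 25.4 ± 3.91 in Dnmt3a KO, 33.01 ± 2.004 in DKO and 22.5 ± 2.75 in the libraries labelled Tet3 KO. Its largest difference was in DKO (0.75 ± 0.25, adjusted p = 0.0916), not called. Kcnq1ot1 averaged 1.05 ± 0.837 CPM in WT, 1.22 ± 1.34 in LCD KO, 1.44 ± 1.196 in HD mutant, 4.69 ± 0.9598 in Dnmt3a KO, 2.46 ± 2.55 in DKO and 1.29 ± 0.788 in the libraries labelled Tet3 KO.

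Among maternally expressed members, Grb10, an adaptor that restrains insulin signalling, averaged 29.1 ± 6.39 CPM in WT, 30.6 ± 7.09 in LCD KO, 24.3 ± 7.26 in HD mutant, 38.3 ± 8.33 in Dnmt3a KO, 38.3 ± 5.26 in DKO and 37.2 ± 7.55 in the libraries labelled Tet3 KO. Copg2, a coatomer subunit, averaged 28.98 ± 5.61 CPM in WT, 29.2 ± 5.86 in LCD KO, 30.2 ± 4.69 in HD mutant, 33.9 ± 12.8 in Dnmt3a KO, 28.05 ± 6.43 in DKO and 32.2 ± 3.65 in the libraries labelled Tet3 KO. These 2 had the narrowest spread of their class in WT relative to their means. Igf2r averaged 21.9 ± 6.07 CPM in WT, 17.5 ± 7.86 in LCD KO, 19.7 ± 5.91 in HD mutant, 22.2 ± 12.9 in Dnmt3a KO, 12.8 ± 1.09 in DKO and 16.3 ± 7.04 in the libraries labelled Tet3 KO, and its fold change was -0.49 ± 0.22, adjusted p = 0.113 in LCD KO and -0.85 ± 0.32, adjusted p = 0.102 in HD mutant, where it was called without the filter (-0.87, adjusted p = 0.0393). Airn, the noncoding RNA antisense to Igf2r, averaged 1.15 ± 0.592 CPM in WT, 0.716 ± 0.464 in LCD KO, 0.957 ± 0.434 in HD mutant, 1.63 ± 0.787 in Dnmt3a KO, 1.53 ± 1.11 in DKO and 1.66 ± 0.066995 in the libraries labelled Tet3 KO. It did not pass the filter and was not tested in that fit. Nespas, an antisense RNA of the Gnas locus, averaged 0.606 ± 0.549 CPM in WT, 0.683 ± 0.589 in LCD KO, 0.371 ± 0.217 in HD mutant, 1.15 ± 1.11 in Dnmt3a KO, 1.003 ± 1.42 in DKO and 0.591 ± 0.144 in the libraries labelled Tet3 KO, and Peg10 0.156 ± 0.174 CPM in WT, 0.438 ± 0.338 in LCD KO, 0.782 ± 0.698 in HD mutant, 1.58 ± 1.72 in Dnmt3a KO, 1.29 ± 1.36 in DKO and 0.978 ± 1.38 in the libraries labelled Tet3 KO, both also outside the fit. Kcnq1 averaged 36.1 ± 21.2 CPM in WT, 32.98 ± 12.7 in LCD KO, 34.4 ± 24.1 in HD mutant, 14.3 ± 3.51 in Dnmt3a KO, 15.3 ± 0.0477 in DKO and 22.4 ± 3.97 in the libraries labelled Tet3 KO.

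Genes that set or protect imprints were read from a separate list of 28, of which 25 were tested. The list holds Tet3 and Dnmt3a, the genes that the alleles themselves target. Their calls in the groups carrying those alleles were set by the design, although the counts below include them. In LCD KO 0 rose and 7 fell, beside 8.89% higher and 9.44% lower of all genes, and of the 7 the 4 with the largest changes were Tet3, Kdm1a (-0.69 ± 0.25, adjusted p = 0.0495), Khdc3 (-0.64 ± 0.16, adjusted p = 0.00738) and Dnmt1 (-0.59 ± 0.18, adjusted p = 0.0216). Kdm1a is a histone lysine demethylase, Dnmt1 maintains DNA methylation, and Khdc3 belongs to the subcortical maternal complex. In HD mutant Tet1 rose (1.47 ± 0.44, adjusted p = 0.0366) and Tet3, Dnmt3l (-0.70 ± 0.21, adjusted p = 0.0402) and Setdb1 fell, 4 of 25 beside 7.83% of all genes. Dnmt3a was the single gene called both in Dnmt3a KO (0.755% of all genes) and in the labelled Tet3 KO group (1.37%), and DKO gave Dnmt3a and Tet3 (3.79%). The medians of the list were -0.19 in LCD KO, -0.24 in HD mutant, -0.03 in Dnmt3a KO and -0.21 in DKO, against -0.02 to -0.01 over all genes tested.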

How the data were processed

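Polyadenylated RNA of pools of 10 GV oocytes was sequenced. The table deposited by the authors holds whole-number read counts, not normalized, with a gene symbol for each row. The submitters' processing notes name the tools Trim Galore 0.5.0, HISAT2 2.1.0 and featureCounts 1.6.4 and the genome build mm9. Annotation and strand setting are not given in the sources used here. The 92 ERCC rows held 1 count over 24 distinct libraries and were left out, leaving 24450 features. The 26 columns held 2 identical pairs, each counted once, and the 49 remaining within-group pairs differed by more than sampling noise.

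Counts were fitted with edgeR 4.0.16 in R 4.3.3 (TMM factors, filterByExpr by group, robust quasi-likelihood test, terms for group and batch) over 22 libraries and 11794 genes, with 14 residual degrees of freedom, and adjusted over all genes at a threshold of 0.05. Levels pool the batches of a group, whereas fold changes are adjusted for batch. Alternatives were DESeq2 1.42.0, RLE factors, no filter, no batch term (24 libraries), a replicate block, single batches and leaving out each library. The test was checked on simulated counts for LCD KO against WT, without batch effects and with changes placed only in genes of higher counts. That check does not cover the smaller groups, batch effects or low genes. Exon lengths, promoters and overlaps came from GENCODE and RefSeq tables of another build and were used by gene symbol.

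The members and lists were chosen with earlier results of these data known. Members were given values in every group if their mean reached 1 CPM in any group, and values per library if they were called, belonged to the 5 paternally methylated genes or were among the 6 highest in WT; per-library values of Impact, H13, Kcnq1, Kcnq1ot1, Mcts2 and Peg10 were added after their values were seen. Of other lists, at most 4 genes were to be described with values, those with the largest changes among called genes. Same-numbered WT and LCD KO libraries of batch 1 were not shown to be pairs, since correlations of their deviations were -0.0495 to -0.0172. Totals of 1838824 to 7833087 counts limit the precision of low genes, and floors cover counting error only.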

Additional observations from a re-analysis of the deposited data

Results flagged for a closer look

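Dixon's test at 95% flags about 1 in 20 combinations by chance when values are independent and free of batch differences. The CPM tested here were not adjusted for batch and the same libraries recur across combinations, so that rate is no benchmark. The test picked out a library far from the others of its group in 10 of 87 combinations of gene and group of 4 to 10 libraries. In 5 of them the library was WT 4, the only WT library of batch 2: Mest at 90.6 CPM, against 177 to 214 in the other WT libraries, Blcap at 75.9 CPM, against 163 to 199.98, Gnas at 323 CPM, against 118 to 176, Kcnq1 at 77.5 CPM, against 19.9 to 35.4 and Cdkn1c at 29.5 CPM, against 2.799 to 12.5. The LCD KO libraries of batch 2 were also above the WT libraries of the other batches for Gnas, at 209.7 and 287 CPM, and for Kcnq1, at 45.9 and 55.8 CPM.

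WT 5 stood apart for Usp29, at 7.77 CPM, against 2.34 to 4.13 in the other WT libraries, and for Phlda2, at 32.7 CPM, against 4.13 to 10.4. WT 6 was high for Copg2, at 40.1 CPM, against 24.6 to 28.2. WT 1 was at 0 CPM, against 1.17 to 1.62 for Airn. LCD KO 2 was high for Nap1l5, at 6.58 CPM, against 0.623 to 2.18 in the other LCD KO libraries, and this library also held the highest granulosa marker sum, 431.5 CPM, of which Inha gave 293 and Gja1 61.7. Its part in the Nap1l5 value was not tested.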

How the results depend on the processing

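Counts of called imprinted genes depended on the setting. In LCD KO against WT (3 called) they were 5 by DESeq2, 0 without a batch term, 1 with the replicate block, 5 in batch 1 alone and 0 in batch 2 or batch 3 alone. In HD mutant against WT (1) they were 3 without the filter, 2 without a batch term, 7 with the replicate block and 0 in batch 2 alone. In Dnmt3a KO against WT (1) they were 3 by DESeq2, 4 without the filter, 0 without a batch term, 3 with the block and 0 in batch 3 alone. In DKO against WT (1) they were 2 by DESeq2, 2 with RLE factors, 0 without a batch term, 5 with the block and 0 in batch 3 alone. For Dnmt3a loss averaged over both Tet3 backgrounds (1) they were 2 by DESeq2, 3 without the filter, 0 without a batch term and 8 with the block. With the block, 3 were called in the libraries labelled Tet3 KO against WT, 5 in DKO against LCD KO and 7 in HD mutant against LCD KO, where 1 was called without the filter. The block, by replicate numbers not shown to pair libraries, took the place of the batch term. Fewer libraries entered the single-batch fits; the cause of the other differences was not tested. Leaving out each library gave 2 to 5 in LCD KO, 0 to 2 in HD mutant, 0 to 3 in Dnmt3a KO, 0 to 2 in DKO, 1 to 3 for the averaged contrast and 0 in the other comparisons. The sign turned for LCD KO against WT in batch 2 alone, with 1 WT library, for Mest (0.17), Herc3 (0.44), Blcap (0.16), H13 (0.040) and Trappc9 (0.15). It turned for Gnas in HD mutant against WT without a batch term (0.068) and against LCD KO (0.055). With the replicate block it turned for Gnas (0.47) and Phlda2 (-0.052) in HD mutant against WT and for Herc3 (0.040), Commd1 (-0.39) and Gnas (0.38) in HD mutant against LCD KO. Single counts per library, as for H19, Dlk1 and Igf2, allow no comparison at this depth.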

Other observations

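A separate list held 55 other genes described as imprinted, of which 54 were in the table and 27 were tested. In LCD KO 3 rose and 4 fell, beside 18.3% of all genes called, and in HD mutant 2 rose and 2 fell, beside 7.83%. In Dnmt3a KO 1 rose (0.755% of all genes called), in DKO 2 rose (3.79%) and in the libraries labelled Tet3 KO 1 rose (1.37%). Qpct, a glutaminyl cyclase, rose in HD mutant (5.13 ± 0.94, adjusted p = 0.00172), Dnmt3a KO (4.26 ± 0.73, adjusted p = 0.00261), DKO (3.23 ± 0.78, adjusted p = 0.0198) and the libraries labelled Tet3 KO (4.51 ± 0.72, adjusted p = 0.000675), comparisons that share their WT libraries. It averaged 1.15 ± 0.599 CPM in WT, 4.01 ± 6.17 in LCD KO, 7.37 ± 4.31 in HD mutant, 17.5 ± 6.77 in Dnmt3a KO, 8.76 ± 3.53 in DKO and 21.2 ± 1.19 in the libraries labelled Tet3 KO. Among LCD KO libraries it was highest in LCD KO 2, at 17.7 CPM, the library with the high granulosa marker sum, and at most 3.68 CPM in the others. HD mutant was also above LCD KO in the direct test (3.60 ± 0.86, adjusted p = 0.0234). In batch 2 Qpct was at 4.10, 5.13 and 4.14 CPM in HD mutant 1 to 3 and at 0.719 CPM in WT 4, the only WT library there. LCD KO 4 and 5 held 0.113 and 0.115 CPM. Through the batch term the fitted HD mutant value also rests on the LCD KO libraries, so it is no within-batch difference.

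Asb4, a substrate adaptor of ubiquitin ligases encoded near the Peg10 locus, rose in LCD KO (1.45 ± 0.19, adjusted p = 8.51e-06) and DKO (1.82 ± 0.29, adjusted p = 0.000332), and was higher in DKO than in Dnmt3a KO (1.63 ± 0.33, adjusted p = 0.00800). It averaged 10.5 ± 1.81 CPM in WT, 28.8 ± 11.003 in LCD KO, 10.1 ± 2.74 in HD mutant, 13.4 ± 3.501 in Dnmt3a KO, 42.2 ± 8.23 in DKO and 16.7 ± 5.04 in the libraries labelled Tet3 KO. Cobl, an actin nucleator beside Grb10, fell in LCD KO (-2.32 ± 0.37, adjusted p = 0.000110) and HD mutant (-2.56 ± 0.57, adjusted p = 0.00638). It averaged 12.2 ± 7.52 CPM in WT, 2.22 ± 2.02 in LCD KO, 4.44 ± 3.67 in HD mutant, 9.61 ± 0.841 in Dnmt3a KO, 1.75 ± 0.341 in DKO and 2.98 ± 0.288 in the libraries labelled Tet3 KO. Rian, a noncoding RNA downstream of Meg3 in the same domain, rose in LCD KO (1.34 ± 0.46, adjusted p = 0.0402) and averaged 1.37 ± 1.305 CPM in WT, 2.86 ± 1.61 in LCD KO, 2.44 ± 0.923 in HD mutant, 5.73 ± 1.92 in Dnmt3a KO, 4.04 ± 2.44 in DKO and 2.64 ± 1.45 in the libraries labelled Tet3 KO, while Meg3 itself was not called there (0.42 ± 0.34, adjusted p = 0.420).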
